A study of Homo sapiens with 12 samples.

Results

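The copying of DNA in S phase was followed through 46 genes in a cisplatin-resistant lung cancer line given gambogenic acid. The genes were picked by symbol from the deposited count and FPKM tables, which list 61510 genes, as textbook factors of origin licensing (11 genes), helicase activation and the replication fork (8), polymerases and primase (8), the sliding clamp, its loader and lagging-strand processing (7), nucleotide supply (5) and chromatin assembly or S phase regulation (7). All 46 were found in the tables and all 46 passed the filter on low counts that left 15653 genes to test. The list was drawn up with earlier results of these data known. Comparisons of the 46 with all genes therefore describe the list and are not an independent test of it. The cells were A549/DDP, a cisplatin-resistant form of the A549 lung adenocarcinoma line that was kept in medium with 1 µg/ml cisplatin, and every group shared this background. There were 4 groups of 3 bulk RNA sequencing libraries: shNRF2 cells with 4 µM GNA for 24 h, shNRF2 cells with DMSO for 24 h, shNC cells with 4 µM GNA for 24 h, and shNC cells with DMSO for 24 h. GNA is gambogenic acid, shNRF2 is a short hairpin RNA line against NRF2 (the transcription factor encoded by NFE2L2), shNC is the control hairpin line and DMSO is the vehicle. Each hairpin is represented by 1 line. Nothing in the labels tells whether a line is a clone, or whether replicate libraries were grown as separate cultures; the p-values therefore cover library-to-library spread only, and part or all of it may be technical.

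Eukaryotic replication is prepared in G1, when the origin recognition complex, CDC6 and CDT1 load the ring-shaped MCM2 to MCM7 helicase onto DNA, and geminin (GMNN) later blocks reloading. In S phase, CDC45 and the GINS complex join the MCM ring to form the active helicase, primase and DNA polymerase alpha lay down primers, and the polymerases delta and epsilon extend them with the help of the PCNA clamp. Many of these genes are transcribed in a wave at the G1/S boundary by E2F factors, which the retinoblastoma protein holds back until cyclin-dependent kinases release them, and for that reason their messenger RNA is widely used as a measure of proliferation. In bulk RNA, fewer cells in S phase and less of each messenger per cell cannot be told apart.

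Library totals lay between 12848607 and 17192671 counts. NFE2L2, the hairpin's target, stood at 45.8 ± 2.00 CPM in shNRF2 cells with GNA and 87.4 ± 3.85 CPM in shNC cells with GNA, and at 50.2 ± 2.80 CPM in shNRF2 cells with DMSO and 77.9 ± 3.60 CPM in shNC cells with DMSO (SD, n = 3 each). CPM is a count scaled to a common library total with TMM factors, and was not adjusted for gene length. The difference between the lines in NFE2L2 was -0.93 ± 0.0637 on the log2 scale with GNA (SE, edgeR adjusted p = 9e-12) and -0.64 ± 0.064 with DMSO (adjusted p = 1.2e-08). Of 10 epithelial markers, KRT8, KRT18 and KRT7 were high in all 12 libraries, CDH1 and EPCAM were detected, and KRT19, NKX2-1, SFTPC, SFTPB and SFTPA1 were at or near 0. The summed level of the 10 was 10817 ± 297 CPM with GNA and 16660 ± 251 CPM with DMSO in shNRF2 cells, and 11321 ± 161 CPM with GNA and 17236 ± 535 CPM with DMSO in shNC cells. The markers did not all move with this sum. Of the 5 that passed the filter on low counts, 2 were called lower and 0 higher with GNA in shNRF2 cells. In shNC cells 2 were called lower and 2 higher. KRT8, the most abundant, fell with GNA in both lines, with log2 changes of -0.70 ± 0.0401 and -0.71 ± 0.0401. CDH1, which encodes E-cadherin, was higher in shNRF2 cells than in shNC cells, by 0.56 ± 0.0764 with GNA and 0.95 ± 0.0792 with DMSO, and it rose with GNA in shNC cells (0.46 ± 0.0803; all edgeR adjusted p under 0.05). The part of these changes in the results was not tested. Leukocyte and endothelial markers were also at or near 0. Of 13 markers of other cell types, 3 passed the filter on low counts: the fibroblast markers COL1A1 and DCN and the smooth muscle marker ACTA2. None of these was called in any of the comparisons. The summed level of 13 markers of other cell types was 20.4 ± 0.685 CPM in shNRF2 cells with GNA, 20.3 ± 2.40 CPM in shNRF2 cells with DMSO, 22.0 ± 2.34 CPM in shNC cells with GNA and 21.2 ± 2.87 CPM in shNC cells with DMSO. The share of counts in 13 mitochondrial messenger RNAs was 4.21 ± 0.0153% with GNA and 5.93 ± 0.427% with DMSO in shNRF2 cells, and 4.67 ± 0.194% with GNA and 5.21 ± 0.678% with DMSO in shNC cells; its part in the results was not tested. One shNC DMSO library, replicate 1, differed more from its group than other libraries did, and the members' calls that change without it are named where they arise.

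Nearly the whole replication set was lower with GNA in both lines. The summed level of the 46 genes was 1267 ± 8.56 CPM with GNA and 2433 ± 15.5 CPM with DMSO in shNRF2 cells, and 1282 ± 14.7 CPM with GNA and 2159 ± 42.2 CPM with DMSO in shNC cells (SD, n = 3 each). At an edgeR adjusted p under 0.05 over all genes tested, 43 of the 46 fell with GNA in shNRF2 cells and 42 in shNC cells, and none rose in either line, nor did any reach an unadjusted p under 0.05 above 0. By comparison, 17% of all 15653 genes tested fell in shNRF2 cells and 16.7% rose, and 16.1% fell in shNC cells and 14.6% rose. In shNRF2 cells the median change of the 46 genes was -0.94 on the log2 scale, against 0.0098 over all genes tested; in shNC cells it was -0.69, against 0.017. A change at least 2-fold downward, a log2 change of -1 or less, was reached and called for 20 genes in shNRF2 cells and for 6 in shNC cells (MCM6, MCM10, GINS2, FEN1, RRM2 and FAM111B), and all 6 were among the 20. Over all 15653 genes tested, 798 in shNRF2 cells and 463 in shNC cells were called with a change of at least 2-fold in either direction. Of the 46 genes, 40 were called in both lines, and POLA2 was the 1 gene called in neither. The share of all genes tested that fell in both lines was not counted, and it cannot exceed the 16.1% that fell in shNC cells.

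For 45 of the 46 genes every GNA library of shNRF2 cells lay below every DMSO library, which 22.1% of all genes tested did, and for 41 genes the same held in shNC cells, against 20.2% of all genes. The exception in shNRF2 cells was POLA2. In shNC cells the groups overlapped for POLA2, PRIM1, POLE2, RFC5 and E2F2. Across the 46 genes the 2 lines' log2 changes had a Pearson correlation of 0.57 and a Spearman correlation of 0.65, as a description over genes that share libraries and depth. The steepest fall was that of FAM111B in shNC cells, -1.64 ± 0.0848, and that of E2F8 in shNRF2 cells, -1.37 ± 0.221. PRIM2 had the smallest estimate in shNRF2 cells, -0.32 ± 0.169, and LIG1 that in shNC cells, -0.28 ± 0.068.

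**Figure D1:**
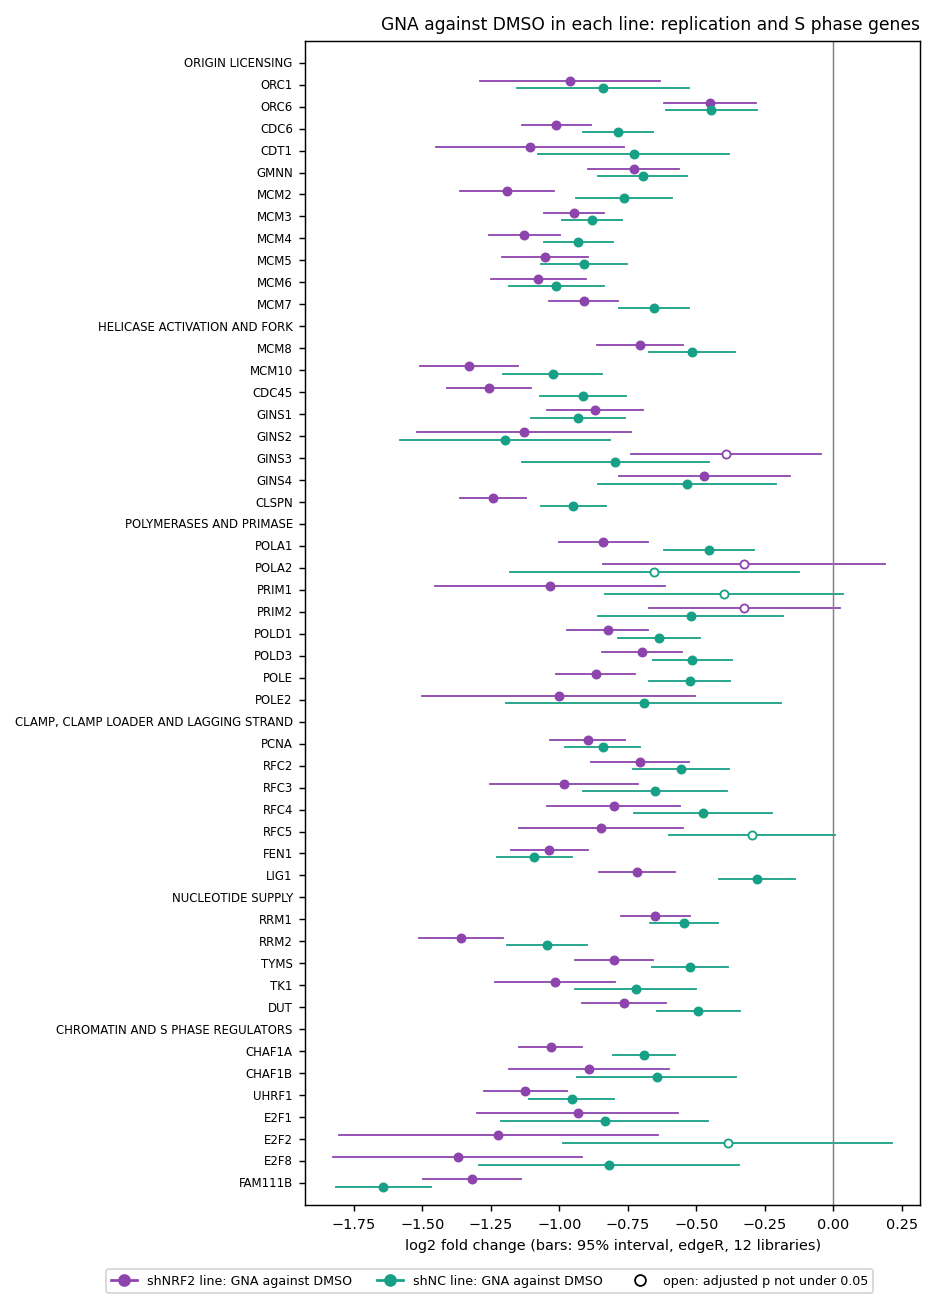
Log2 fold change with GNA against DMSO (x axis) for each of the 46 genes, grouped by role, in shNRF2 cells (purple) and shNC cells (green), with 95% intervals from edgeR over 12 libraries. All points lie left of 0; open points, 3 in shNRF2 cells and 4 in shNC cells, did not reach an adjusted p under 0.05.

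Because E2F factors are known to drive many of these genes, their promoters were searched for E2F-type octamers. These were TTTCCCGC, TTTGGCGC, TTTCGCGC and TTTGCCGC, read on both strands, and overlapping matches were counted separately. The genes were chosen as replication and S phase factors, so a high share with a match was likely from that choice alone. The share describes the list and is not a test of the GNA response. RefSeq promoter windows on GRCh38.p14, 250 bases before to 50 after the start, were held for 40 of the 46 genes, in 55 windows; GINS4, E2F8, POLD3, MCM4, MCM5 and FAM111B had none. An E2F-type match was found in 25 of the 55 windows (45.5%), against 4.77% of 16300 windows of genes tested and 3.32% of all 35116 windows of that length. Counted by gene, 24 of 40 held a match (60.0%), against 6.53% of 11206 genes tested. The 5-letter CCAAT box, which is common in promoters, was in 54.5% of the members' windows and in 34.5% of those of genes tested, and TTTGAA, the core of the CHR element of G2/M promoters, was in 3.64% and 10.8%. The 6 windows with the most E2F-type matches are printed 5′ to 3′ on the gene's strand, with the matched stretches in capitals. Overlapping matches are joined into 1 stretch there: MCM6 had 4 matches in 2 stretches, and MCM2 had 2 matches in 1.
MCM6, chr2:135876394-135876693, minus strand: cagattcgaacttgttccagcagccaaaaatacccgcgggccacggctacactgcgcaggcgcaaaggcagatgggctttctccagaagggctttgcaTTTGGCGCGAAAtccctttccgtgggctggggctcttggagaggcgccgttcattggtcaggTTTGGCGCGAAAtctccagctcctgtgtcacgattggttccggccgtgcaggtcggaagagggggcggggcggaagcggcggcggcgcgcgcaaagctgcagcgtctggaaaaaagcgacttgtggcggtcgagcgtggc
MCM3, chr6:52284693-52284992, minus strand: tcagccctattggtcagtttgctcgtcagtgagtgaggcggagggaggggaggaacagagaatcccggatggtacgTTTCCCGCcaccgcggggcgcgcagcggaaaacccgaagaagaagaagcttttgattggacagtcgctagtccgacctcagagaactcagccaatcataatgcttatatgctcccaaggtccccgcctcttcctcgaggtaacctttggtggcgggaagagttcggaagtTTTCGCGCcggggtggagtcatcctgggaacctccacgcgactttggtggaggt
E2F1, chr20:33686336-33686635, minus strand: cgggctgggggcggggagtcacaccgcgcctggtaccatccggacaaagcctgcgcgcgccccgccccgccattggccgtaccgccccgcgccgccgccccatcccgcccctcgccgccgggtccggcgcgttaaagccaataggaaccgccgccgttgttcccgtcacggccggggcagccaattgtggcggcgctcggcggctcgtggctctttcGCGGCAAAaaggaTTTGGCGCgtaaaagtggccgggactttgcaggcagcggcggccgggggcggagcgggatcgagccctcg
MCM2, chr3:127598161-127598460, plus strand: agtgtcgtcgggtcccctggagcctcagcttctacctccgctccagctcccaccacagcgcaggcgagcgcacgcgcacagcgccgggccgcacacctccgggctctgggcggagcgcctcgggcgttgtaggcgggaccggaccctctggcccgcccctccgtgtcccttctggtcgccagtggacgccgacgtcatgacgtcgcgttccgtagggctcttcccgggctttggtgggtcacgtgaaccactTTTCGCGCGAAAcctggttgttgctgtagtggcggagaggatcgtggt
MCM7, chr7:100101348-100101647, minus strand: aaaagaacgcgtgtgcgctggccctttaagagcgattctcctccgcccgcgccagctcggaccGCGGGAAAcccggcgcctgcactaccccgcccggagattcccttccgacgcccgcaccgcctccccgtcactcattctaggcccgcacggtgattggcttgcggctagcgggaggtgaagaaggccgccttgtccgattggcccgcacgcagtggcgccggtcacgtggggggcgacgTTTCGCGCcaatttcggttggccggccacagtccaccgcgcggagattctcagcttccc
DUT, chr15:48331947-48332246, plus strand: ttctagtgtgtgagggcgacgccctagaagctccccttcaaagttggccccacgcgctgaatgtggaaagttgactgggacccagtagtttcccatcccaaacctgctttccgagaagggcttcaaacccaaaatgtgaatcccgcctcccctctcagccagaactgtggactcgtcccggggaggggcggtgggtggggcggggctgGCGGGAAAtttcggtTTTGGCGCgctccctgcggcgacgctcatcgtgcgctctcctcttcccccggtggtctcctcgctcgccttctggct
In MCM6 the same stretch, TTTGGCGCGAAA, appears 2 times, and both copies read as a match on either strand. The 24 genes with a match had a median log2 change with GNA of -0.92 in shNRF2 cells and -0.71 in shNC cells, and the 16 without one had -0.93 and -0.64. A match is a string of letters in the window, not a bound site.

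All 11 licensing genes fell with GNA in both lines, with a median log2 change of -1.01 in shNRF2 cells and -0.78 in shNC cells. MCM2, an MCM ring subunit encoded at chr3:127598223-127622436 (gene positions are those of GENCODE 29 on GRCh38), had 28.5, 24.1 and 25.4 CPM in GNA-treated shNRF2 libraries, against 64.2, 59.0 and 54.0 CPM in DMSO-treated shNRF2 libraries. It had 23.2, 22.3 and 26.8 CPM in GNA-treated shNC libraries, against 41.6, 39.8 and 41.4 CPM in DMSO-treated shNC libraries. The DMSO libraries of shNRF2 cells were the highest of the 4 groups, the GNA libraries of both lines overlapped, and the fall was -1.19 ± 0.0831 in shNRF2 cells and -0.76 ± 0.0847 in shNC cells (SE, edgeR adjusted p = 6.9e-12 and 8.1e-08). MCM5, another ring subunit, had 26.5, 23.0 and 27.9 CPM in GNA-treated shNRF2 libraries, against 53.0, 54.3 and 53.4 CPM in DMSO-treated shNRF2 libraries. In shNC cells MCM5 had 26.8, 26.5 and 24.7 CPM in GNA-treated shNC libraries, against 49.3, 46.2 and 51.0 CPM in DMSO-treated shNC libraries. For MCM5 the GNA libraries of both lines overlapped, the DMSO libraries lay above them with those of shNRF2 cells highest, and the falls were -1.05 ± 0.0761 and -0.91 ± 0.0758.

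CDC6, the ATPase that loads the MCM ring, had 42.5, 45.2 and 41.1 CPM in GNA-treated shNRF2 libraries, against 89.3, 84.1 and 85.9 CPM in DMSO-treated shNRF2 libraries. Its levels were 36.7, 37.0 and 35.9 CPM in GNA-treated shNC libraries, against 61.2, 63.9 and 63.6 CPM in DMSO-treated shNC libraries. None of the 4 groups overlapped for CDC6, and the fall was -1.01 ± 0.0609 in shNRF2 cells and -0.78 ± 0.0622 in shNC cells. CDT1, its partner in loading, had 4.22, 4.31 and 3.69 CPM in GNA-treated shNRF2 libraries, against 9.44, 7.81 and 9.05 CPM in DMSO-treated shNRF2 libraries. The same gene had 3.74, 4.81 and 3.38 CPM in GNA-treated shNC libraries, against 6.96, 6.07 and 6.80 CPM in DMSO-treated shNC libraries. Levels of CDT1 were low and GNA libraries of both lines overlapped each other, below all DMSO libraries. The falls of CDT1 were -1.11 ± 0.167 and -0.73 ± 0.17. ORC1, the largest subunit of the origin recognition complex, had 6.86, 4.88 and 5.60 CPM in GNA-treated shNRF2 libraries, against 11.8, 11.3 and 10.3 CPM in DMSO-treated shNRF2 libraries. For ORC1 there were 5.04, 8.39 and 7.00 CPM in GNA-treated shNC libraries, against 11.8, 12.3 and 12.7 CPM in DMSO-treated shNC libraries. The fall of ORC1 was -0.96 ± 0.16 in shNRF2 cells and -0.84 ± 0.153 in shNC cells, and the DMSO libraries of the lines overlapped.

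The other licensing genes lay within this range. ORC6, another subunit of the origin recognition complex, had the smallest fall of the role in both lines, -0.45 ± 0.0819 in shNRF2 cells and -0.44 ± 0.0816 in shNC cells. GMNN, the inhibitor of CDT1, fell less than CDT1 by point estimate, with log2 changes of -0.73 and -0.70. MCM6 fell most of the role in shNC cells, -1.01 ± 0.0845, with -1.08 in shNRF2 cells. MCM3, MCM4 and MCM7 fell with log2 changes of -0.95, -1.13 and -0.91 in shNRF2 cells and -0.88, -0.93 and -0.65 in shNC cells. On the per-length FPKM scale, MCM3 made up 49.4 ± 1.94% of the summed MCM2 to MCM7 level with GNA and 48.0 ± 0.939% with DMSO in shNRF2 cells, and 49.96 ± 0.946% with GNA and 51.4 ± 0.271% with DMSO in shNC cells. MCM7 came next, with 22.4 ± 1.31% and 21.2 ± 1.07% in shNRF2 cells with GNA and DMSO, and 21.4 ± 0.677% and 18.8 ± 0.365% in shNC cells with GNA and DMSO.

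Of the 8 genes of helicase activation and the fork, 7 fell in shNRF2 cells and all 8 in shNC cells, with medians of -0.999 and -0.92. CDC45, at chr22:19479459-19520612, which joins the MCM ring to switch the helicase on, had 20.1, 21.4 and 20.4 CPM in GNA-treated shNRF2 libraries, against 48.0, 51.8 and 48.5 CPM in DMSO-treated shNRF2 libraries. It had 17.6, 18.3 and 19.3 CPM in GNA-treated shNC libraries, against 33.5, 35.8 and 34.7 CPM in DMSO-treated shNC libraries. The shNRF2 DMSO libraries stood clear above those of every other group, and the fall was -1.26 ± 0.0746 in shNRF2 cells and -0.91 ± 0.0765 in shNC cells (edgeR adjusted p = 2.2e-13 and 5.1e-10). MCM10, which helps to activate the helicase and recruit polymerase alpha, had 22.1, 21.3 and 16.99 CPM in GNA-treated shNRF2 libraries, against 54.3, 47.2 and 49.5 CPM in DMSO-treated shNRF2 libraries. MCM10 had 18.7, 20.1 and 20.6 CPM in GNA-treated shNC libraries, against 40.2, 39.2 and 41.4 CPM in DMSO-treated shNC libraries. This was the steepest fall of the role in shNRF2 cells, -1.33 ± 0.0874, with -1.02 ± 0.0878 in shNC cells. CLSPN, the checkpoint mediator claspin at chr1:35720218-35769967, had 57.7, 61.6 and 57.0 CPM in GNA-treated shNRF2 libraries, against 137, 139 and 141 CPM in DMSO-treated shNRF2 libraries. Claspin RNA had 58.8, 60.6 and 62.1 CPM in GNA-treated shNC libraries, against 108, 121 and 121 CPM in DMSO-treated shNC libraries. All GNA libraries of both lines lay between 57.0 and 62.1 CPM, below all DMSO libraries, and the falls were -1.24 ± 0.0586 and -0.95 ± 0.0584.

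The GINS complex, which holds the helicase together with CDC45, was measured through its 4 subunits. GINS2 had 4.00, 3.23 and 4.31 CPM in GNA-treated shNRF2 libraries, against 6.10, 10.0 and 9.28 CPM in DMSO-treated shNRF2 libraries. In the control line GINS2 had 3.67, 3.45 and 4.48 CPM in GNA-treated shNC libraries, against 9.92, 8.10 and 8.71 CPM in DMSO-treated shNC libraries. Its groups did not overlap within either line, and its fall in shNC cells, -1.20 ± 0.186, was the steepest of the role there, with -1.13 ± 0.19 in shNRF2 cells. GINS1 fell with log2 changes of -0.87 in shNRF2 cells and -0.93 in shNC cells, and GINS4 with -0.47 (edgeR adjusted p = 0.017) and -0.54 (adjusted p = 0.011). The GINS4 calls ended without shNRF2 DMSO replicate 2 (adjusted p = 0.061) and without shNC DMSO replicate 1 (adjusted p = 0.0596). GINS3 had 5.99 ± 1.35 CPM with GNA and 7.88 ± 0.408 CPM with DMSO in shNRF2 cells, and its log2 change of -0.39 ± 0.168 did not pass the test (edgeR adjusted p = 0.075). Without shNRF2 GNA replicate 3 it did, at -0.59 and an adjusted p of 0.014. In shNC cells GINS3 had 5.27 ± 0.888 CPM with GNA and 9.19 ± 0.873 CPM with DMSO, and it fell with a log2 change of -0.80 ± 0.166. The difference between the lines was 0.40 ± 0.236 and did not pass the test (adjusted p = 0.36). MCM8, an MCM relative with a role in homologous recombination, had the smallest fall of the role in shNC cells, -0.52 ± 0.0761, with -0.70 ± 0.0761 in shNRF2 cells.

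**Figure D2:**
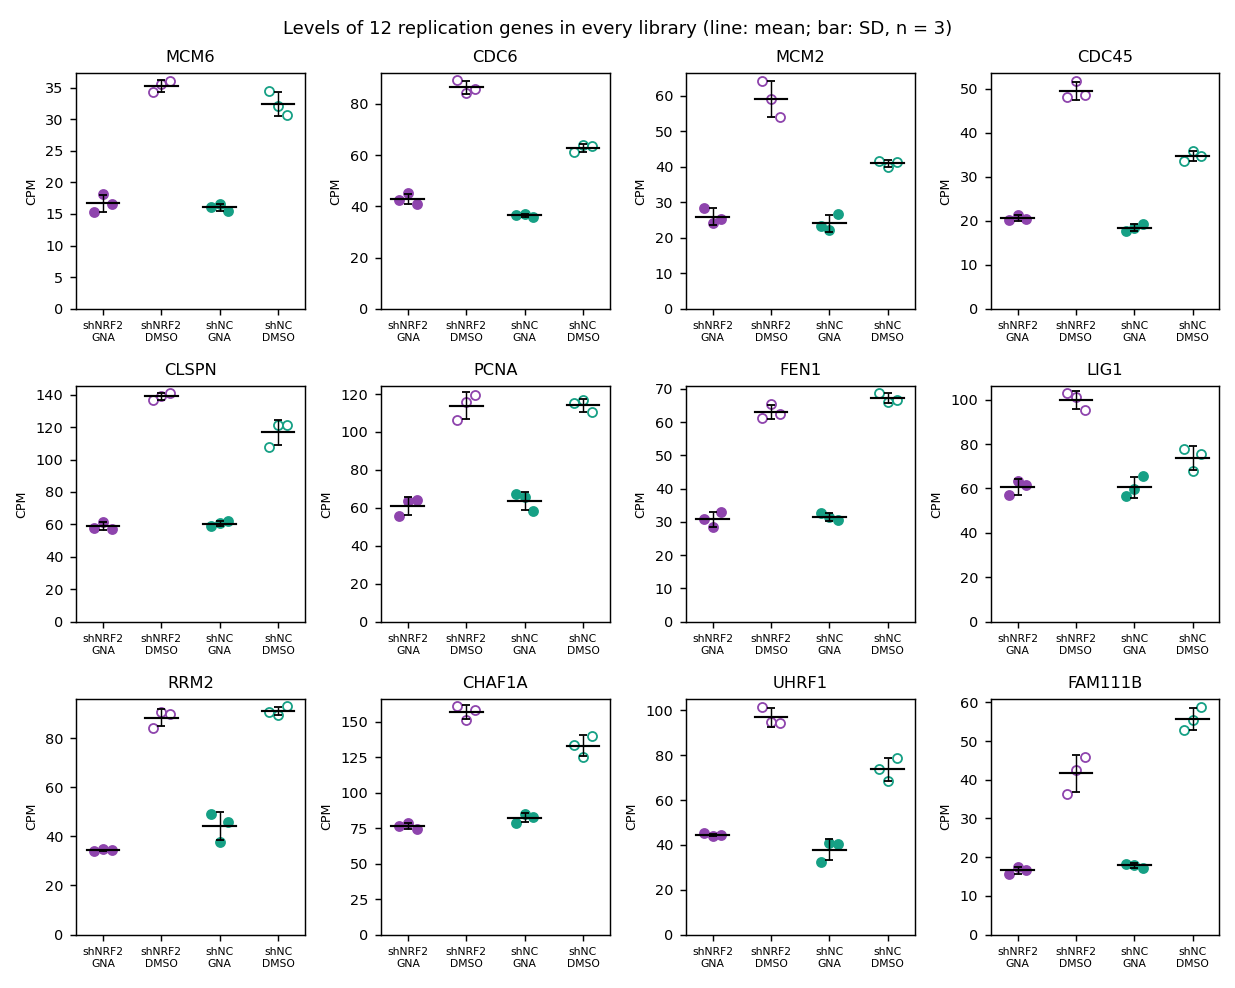
Levels in CPM (y axes, from 0) of 12 of the genes in every library: shNRF2 GNA, shNRF2 DMSO, shNC GNA and shNC DMSO from left to right, with filled points for GNA, the mean as a line and the SD as a bar (n = 3). For each gene the GNA libraries of both lines lie below all DMSO libraries. The shNRF2 DMSO libraries lie above all others for CDC6, MCM2, CDC45, CLSPN, LIG1, CHAF1A and UHRF1. The shNC DMSO libraries do so for FEN1 and FAM111B, and the DMSO libraries of the lines overlap for MCM6, PCNA and RRM2.

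The polymerase and primase genes had the smallest median change in shNC cells, -0.52, with -0.83 in shNRF2 cells, and 6 of the 8 fell in each line. POLA1, the catalytic subunit of polymerase alpha at chrX:24693919-24996986, had 23.2, 22.1 and 23.6 CPM in GNA-treated shNRF2 libraries, against 38.9, 40.3 and 44.3 CPM in DMSO-treated shNRF2 libraries. It had 25.0, 23.9 and 21.9 CPM in GNA-treated shNC libraries, against 30.8, 32.6 and 33.5 CPM in DMSO-treated shNC libraries. The GNA libraries of both lines shared a range of 21.9 to 25.0 CPM, and the fall was -0.84 ± 0.0795 in shNRF2 cells and -0.45 ± 0.0799 in shNC cells. PRIM1, the catalytic primase subunit, had 3.39, 3.80 and 3.02 CPM in GNA-treated shNRF2 libraries, against 5.84, 8.04 and 7.13 CPM in DMSO-treated shNRF2 libraries. For the control line the values were 4.46, 2.96 and 2.89 CPM in GNA-treated shNC libraries, against 4.75, 5.21 and 3.50 CPM in DMSO-treated shNC libraries. PRIM1 had the steepest fall of the role in shNRF2 cells, -1.03 ± 0.204. In shNC cells its libraries overlapped and the estimate of -0.40 ± 0.211 did not pass the test (edgeR adjusted p = 0.16), though it did without shNC GNA replicate 1 (-0.62, adjusted p = 0.042).

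POLE2, a subunit of polymerase epsilon, had 2.56, 2.22 and 2.15 CPM in GNA-treated shNRF2 libraries, against 4.24, 3.83 and 5.83 CPM in DMSO-treated shNRF2 libraries. It also had 2.23, 1.60 and 3.19 CPM in GNA-treated shNC libraries, against 4.00, 3.13 and 4.29 CPM in DMSO-treated shNC libraries. Its levels were under 6 CPM everywhere and the shNC groups overlapped. The fall was -1.002 ± 0.243 in shNRF2 cells and -0.69 ± 0.244 in shNC cells. The shNC call for POLE2 (adjusted p = 0.032) ended without any 1 of 4 libraries, shNC DMSO replicates 1 and 3 and shNC GNA replicates 1 and 2, with adjusted p up to 0.19. It also ended with library totals as the scaling (0.066) and in limma on log2(FPKM + 1) (0.080) and log2(FPKM + 0.1) (0.071). POLE, the catalytic subunit of polymerase epsilon at chr12:132623753-132687365, fell with log2 changes of -0.87 ± 0.07 and -0.52 ± 0.0717, and POLD1 and POLD3 of polymerase delta with -0.82 and -0.70 in shNRF2 cells and -0.64 and -0.51 in shNC cells. PRIM2, the other primase subunit, had 4.38 ± 0.28 CPM with GNA and 5.49 ± 0.622 CPM with DMSO in shNRF2 cells and an estimate of -0.32 ± 0.169 that did not pass the test (edgeR adjusted p = 0.15). In shNC cells PRIM2 fell with a log2 change of -0.52 ± 0.164 (adjusted p = 0.017), a call that ended without shNC GNA replicate 3 (adjusted p = 0.072), with library totals as the scaling (0.0524) and with no filter on low counts (0.0569).

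POLA2, the regulatory subunit of polymerase alpha, had 2.81 ± 0.414 CPM with GNA and 3.49 ± 1.02 CPM with DMSO in shNRF2 cells, and 2.18 ± 0.406 CPM with GNA and 3.40 ± 0.879 CPM with DMSO in shNC cells. Its log2 changes of -0.33 ± 0.25 and -0.65 ± 0.256 did not pass the test (edgeR adjusted p = 0.34 and 0.0547). The shNC estimate passed without shNC DMSO replicate 3 (-0.84, adjusted p = 0.021), without shNC GNA replicate 1 (-0.79, 0.043) or without shNRF2 DMSO replicate 3 (-0.65, 0.043). POLA2 was the lowest of the 46 genes per length. A protein-coding gene of the same strand overlaps it in the annotation, and an overlap on either strand exists for 13 of the 46 genes. RRM2, FEN1, POLD1, CHAF1B and PRIM1 also have a same-strand overlap. Their means in shNC cells with DMSO were 91.2, 67.2, 45.2, 11.6 and 4.49 CPM. Counting can split or withhold the reads of overlapping genes, and whether it did so here was not tested. How overlapping genes were counted, and with which strand setting, is not given in the sources used here.

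All 7 genes of the clamp, clamp loader and lagging strand fell in shNRF2 cells and 6 fell in shNC cells, with medians of -0.85 and -0.56. PCNA, the sliding clamp, had 55.5, 63.5 and 64.1 CPM in GNA-treated shNRF2 libraries, against 106, 116 and 119.7 CPM in DMSO-treated shNRF2 libraries. It had 67.2, 65.9 and 58.1 CPM in GNA-treated shNC libraries, against 115, 117 and 110.3 CPM in DMSO-treated shNC libraries. PCNA libraries of the lines overlapped under either treatment, and the fall was -0.90 ± 0.0671 in shNRF2 cells and -0.84 ± 0.0665 in shNC cells. FEN1, the nuclease that trims Okazaki fragment flaps, had 30.8, 28.5 and 32.9 CPM in GNA-treated shNRF2 libraries, against 61.1, 65.5 and 62.6 CPM in DMSO-treated shNRF2 libraries. In shNC cells FEN1 had 32.8, 31.4 and 30.5 CPM in GNA-treated shNC libraries, against 68.8, 66.0 and 66.7 CPM in DMSO-treated shNC libraries. This was the steepest fall of the role in both lines, -1.04 ± 0.0682 and -1.09 ± 0.0673. LIG1, the ligase that joins Okazaki fragments, at chr19:48115445-48170603, had 56.9, 63.6 and 61.6 CPM in GNA-treated shNRF2 libraries, against 103, 101 and 95.5 CPM in DMSO-treated shNRF2 libraries. LIG1 had 56.4, 59.6 and 65.8 CPM in GNA-treated shNC libraries, against 77.8, 67.7 and 75.4 CPM in DMSO-treated shNC libraries. The GNA libraries of both lines overlapped, the shNRF2 DMSO libraries were the highest, and the fall was -0.72 ± 0.0675 in shNRF2 cells (edgeR adjusted p = 2.3e-09) and -0.28 ± 0.068 in shNC cells (adjusted p = 0.0024). The shNC call for LIG1 ended with library totals as the scaling (-0.18, adjusted p = 0.0506) and in limma on log2(FPKM + 1) and log2(FPKM + 0.1) (-0.15 and -0.18, adjusted p = 0.11 in each).

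The clamp loader subunits RFC2, RFC3, RFC4 and RFC5 fell in shNRF2 cells with log2 changes of -0.71, -0.98, -0.80 and -0.85. In shNC cells RFC2, RFC3 and RFC4 fell with log2 changes of -0.56, -0.65 and -0.47. RFC5 had 8.31 ± 0.499 CPM with GNA and 10.2 ± 1.94 CPM with DMSO in shNC cells, and its estimate of -0.30 ± 0.148 did not pass the test (edgeR adjusted p = 0.14), though it did without shNC DMSO replicate 1 (-0.42, adjusted p = 0.035). For RFC5 the difference between the lines was -0.55 ± 0.208 and was not called (adjusted p = 0.12).

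All 5 nucleotide supply genes fell in both lines, with medians of -0.80 in shNRF2 cells and -0.54 in shNC cells. RRM2, the S phase-limited small subunit of ribonucleotide reductase, had 34.2, 34.7 and 34.3 CPM in GNA-treated shNRF2 libraries, against 84.4, 90.7 and 90.0 CPM in DMSO-treated shNRF2 libraries. It had 49.2, 37.8 and 45.8 CPM in GNA-treated shNC libraries, against 90.9, 89.7 and 93.1 CPM in DMSO-treated shNC libraries. The shNRF2 GNA libraries were the lowest of all and did not overlap the shNC GNA libraries, and the fall was -1.36 ± 0.0738 and -1.05 ± 0.0715. RRM1, the large subunit, which is known to vary less over the cell cycle, fell with log2 changes of -0.65 ± 0.0605 and -0.54 ± 0.0605. The ratio of RRM2 to RRM1 in FPKM was 0.187 ± 0.0102 with GNA and 0.306 ± 0.0185 with DMSO in shNRF2 cells, and 0.248 ± 0.0327 with GNA and 0.350 ± 0.0113 with DMSO in shNC cells. Within each line the 3 ratios with GNA lay below the 3 with DMSO; an exact permutation test of 3 against 3 cannot give a p below 0.1.

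TYMS, thymidylate synthase, had 39.4, 37.3 and 37.98 CPM in GNA-treated shNRF2 libraries, against 62.9, 71.3 and 65.5 CPM in DMSO-treated shNRF2 libraries. Its control-line values were 44.3, 44.9 and 44.6 CPM in GNA-treated shNC libraries, against 61.1, 61.1 and 70.0 CPM in DMSO-treated shNC libraries. Thymidylate synthase fell with log2 changes of -0.80 ± 0.0693 in shNRF2 cells and -0.52 ± 0.068 in shNC cells, and its GNA libraries were lower in shNRF2 cells than in shNC cells without overlap. TK1, the S phase thymidine kinase, had 14.7, 18.3 and 14.8 CPM in GNA-treated shNRF2 libraries, against 31.0, 32.9 and 33.1 CPM in DMSO-treated shNRF2 libraries. In control cells TK1 had 18.5, 13.6 and 16.5 CPM in GNA-treated shNC libraries, against 24.5, 25.8 and 29.4 CPM in DMSO-treated shNC libraries. Its GNA groups overlapped, and the falls were -1.02 ± 0.106 and -0.72 ± 0.107. DUT, the dUTPase that keeps uracil out of DNA, fell with log2 changes of -0.76 ± 0.0747 in shNRF2 cells and -0.49 ± 0.0735 in shNC cells, the smallest of the role in that line.

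Of the 7 chromatin and regulator genes, all fell in shNRF2 cells and 6 in shNC cells. The medians, -1.12 and -0.82, were the lowest of the 6 roles in shNRF2 cells and the next to lowest in shNC cells. CHAF1A, the large subunit of the histone chaperone CAF-1 at chr19:4402662-4445018, had 76.6, 79.1 and 74.7 CPM in GNA-treated shNRF2 libraries, against 161, 152 and 158 CPM in DMSO-treated shNRF2 libraries. It had 78.9, 85.1 and 83.2 CPM in GNA-treated shNC libraries, against 134, 125 and 140.0 CPM in DMSO-treated shNC libraries. Its DMSO libraries were higher in shNRF2 cells without overlap, its GNA libraries overlapped, and the fall was -1.03 ± 0.0558 and -0.69 ± 0.0555. CHAF1B, the p60 subunit of the same chaperone, fell with log2 changes of -0.89 and -0.64. UHRF1, which brings maintenance methylation to newly copied DNA, had 45.1, 44.1 and 44.2 CPM in GNA-treated shNRF2 libraries, against 102, 94.6 and 94.2 CPM in DMSO-treated shNRF2 libraries. UHRF1 had 32.3, 40.8 and 40.5 CPM in GNA-treated shNC libraries, against 73.8, 68.5 and 78.6 CPM in DMSO-treated shNC libraries. The shNRF2 libraries were above the shNC libraries under both treatments, and the falls were -1.12 ± 0.074 and -0.95 ± 0.0754.

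FAM111B, a member of a family of proteases, had 15.7, 17.5 and 16.7 CPM in GNA-treated shNRF2 libraries, against 36.4, 42.6 and 45.9 CPM in DMSO-treated shNRF2 libraries. It had 18.4, 18.0 and 17.3 CPM in GNA-treated shNC libraries, against 52.9, 55.6 and 58.7 CPM in DMSO-treated shNC libraries. Here the shNC DMSO libraries were the highest, the GNA libraries of both lines lay between 15.7 and 18.4 CPM, and the fall was -1.32 ± 0.0877 in shNRF2 cells and -1.64 ± 0.0848 in shNC cells. E2F1, an activator of the G1/S wave, had 3.85, 3.74 and 3.14 CPM in GNA-treated shNRF2 libraries, against 6.87, 6.89 and 6.67 CPM in DMSO-treated shNRF2 libraries. E2F1 had 3.60, 2.84 and 3.01 CPM in GNA-treated shNC libraries, against 6.41, 5.77 and 4.62 CPM in DMSO-treated shNC libraries. Its falls were -0.93 ± 0.179 and -0.83 ± 0.183, and no E2F1 library exceeded 7 CPM. E2F8, an atypical E2F that represses the wave, had 1.66, 1.77 and 2.09 CPM in GNA-treated shNRF2 libraries, against 5.59, 4.82 and 3.91 CPM in DMSO-treated shNRF2 libraries. E2F8 had 1.87, 1.73 and 1.72 CPM in GNA-treated shNC libraries, against 3.10, 3.50 and 2.77 CPM in DMSO-treated shNC libraries. No E2F8 library exceeded 6 CPM, and its falls were -1.37 ± 0.221 and -0.82 ± 0.23.

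E2F2, another activator, had 1.80 ± 0.638 CPM with GNA and 4.15 ± 1.02 CPM with DMSO in shNRF2 cells and fell with a log2 change of -1.22 ± 0.283 (edgeR adjusted p = 0.0012). In the control line it had 1.93 ± 0.266 CPM with GNA and 2.53 ± 0.819 CPM with DMSO, and the estimate of -0.39 ± 0.293 did not pass the test (adjusted p = 0.35). The difference between the lines in E2F2, -0.84 ± 0.409, was the widest estimate of the 46 genes and was not called either (adjusted p = 0.25).

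Genes outside the set gave a frame for these falls. Among 49 other replication genes that were tested, 35 fell and 1 rose with GNA in shNRF2 cells and 34 fell and none rose in shNC cells (0 of them reached the threshold upward in edgeR), with medians of -0.48 and -0.44. Among the larger of these falls were those of ASF1B, a histone chaperone (-1.43 in shNRF2 cells and -1.42 in shNC cells), PCLAF, a PCNA-binding protein (-1.57 and -1.02), and HELLS, a chromatin remodeller (-1.18 and -1.06). ORC3, a subunit of the origin recognition complex, was the 1 that rose, by 0.43 ± 0.107 in shNRF2 cells (edgeR adjusted p = 0.0025), with -0.048 ± 0.105 in shNC cells (adjusted p = 0.78).

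Of 29 genes of G1/S control, 18 fell and 1 rose with GNA in shNRF2 cells, and 15 fell and 1 rose in shNC cells, with medians of -0.41 and -0.31. CDKN1A, which encodes the kinase inhibitor p21, was the gene that rose in both lines, with 236 ± 6.47 CPM with GNA and 174 ± 5.42 CPM with DMSO in shNRF2 cells and 219.6 ± 6.85 CPM with GNA and 192 ± 14.3 CPM with DMSO in shNC cells. Its log2 changes were 0.44 ± 0.0532 and 0.19 ± 0.0529 (edgeR adjusted p = 1.8e-07 and 0.0059). CDK2, the S phase kinase, fell with log2 changes of -1.01 and -1.25, at levels under 6 CPM. Its cyclins CCNE2 (-1.11 and -1.20), CCNE1 (-0.34 and -0.49) and CCNA2 (-1.43 and -0.96) fell as well, as did MYC (-0.34 and -0.31) and the transcription factors FOXM1 (-1.27 and -0.82) and MYBL2 (-1.25 and -0.90). E2F7, the other atypical E2F, fell with a log2 change of -0.81 ± 0.141 in shNRF2 cells, while its -0.33 ± 0.141 in shNC cells was not called (adjusted p = 0.082), and the difference between the lines was not called (adjusted p = 0.16). E2F3 had changes of -0.0034 ± 0.0744 and -0.12 ± 0.0732 and RB1, the retinoblastoma gene, changes of -0.10 ± 0.0949 and -0.084 ± 0.0931, none of which passed the test.

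The mitotic genes, which peak after S phase, fell as well: all 23 tested were called lower in shNRF2 cells and 22 in shNC cells, with medians of -1.28 and -0.93. KIF20A, a mitotic kinesin, fell with log2 changes of -1.61 ± 0.0918 and -1.36 ± 0.0889, CENPF, a kinetochore protein, with -1.60 ± 0.0545 and -0.96 ± 0.0539, PLK1, the mitotic kinase, with -1.57 ± 0.0783 and -1.21 ± 0.0792, and CDC20, the activator of the anaphase-promoting complex, with -1.41 ± 0.139 and -1.24 ± 0.148. The difference between the lines was called downward for 9 of the 23, against 3.24% of all genes tested.

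**Figure D3:**
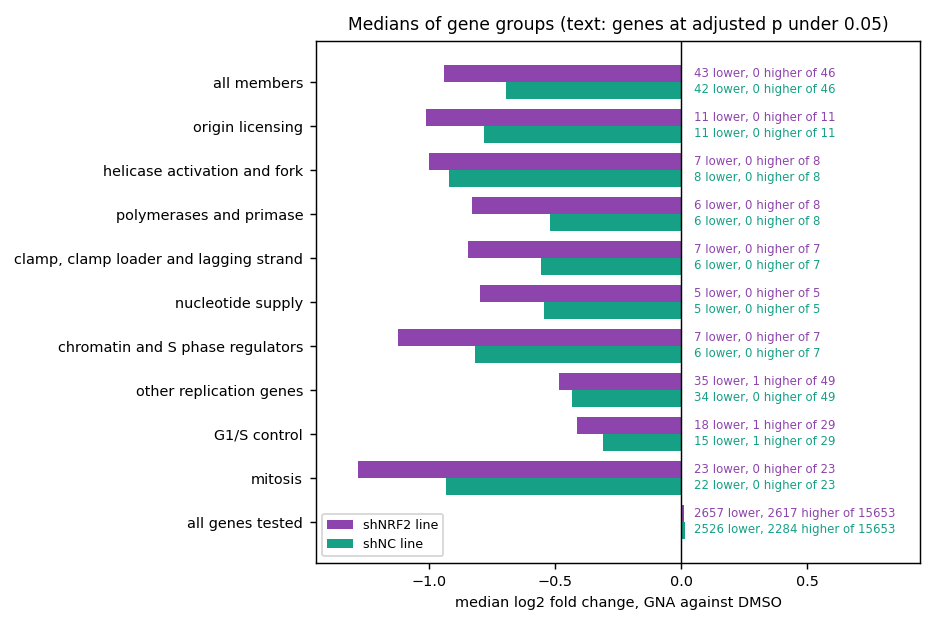
Median log2 fold change with GNA against DMSO (x axis) of the 46 genes, their 6 roles, 3 lists of other cell cycle genes and all genes tested, in shNRF2 cells (purple) and shNC cells (green), with the number of genes at an adjusted p under 0.05 in each direction. The medians of the 6 roles lie between -1.12 and -0.80 in shNRF2 cells and between -0.92 and -0.52 in shNC cells, and those of mitosis are the lowest, at -1.28 and -0.93.

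Between the lines, the replication genes were more often higher than lower in shNRF2 cells when both had DMSO, and few were called in either direction when both had GNA. With DMSO, 20 of the 46 were higher in shNRF2 cells and 2 were lower, against 16.8% and 18.3% of all genes tested, with a median of 0.19 against 0.011 over all genes. With GNA, 3 were higher and 3 lower, against 12.8% and 13.3% of all genes tested, and the median of -0.0071 turned to 0.0084 with library totals as the scaling. The libraries of the lines did not overlap for 23 genes upward and 4 downward with DMSO (21.3% and 21.9% of all genes tested), and for 6 in each direction with GNA (21.2% and 19.7%). The GNA comparison in shNRF2 cells and the comparison of the lines with DMSO share the shNRF2 DMSO libraries, so their values are given side by side only.

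With DMSO the largest estimates upward were those of E2F2, 0.72 ± 0.269, PRIM1, 0.63 ± 0.197, and E2F8, 0.61 ± 0.205, all under 9 CPM. The E2F2 call ended without shNC DMSO replicate 2 (adjusted p = 0.22) or shNRF2 DMSO replicate 1 (0.13) or 2 (0.15), in DESeq2 (0.051) and in limma on log2(FPKM + 0.1) (0.074). The PRIM1 call ended without shNC DMSO replicate 3 (0.0865) or shNRF2 DMSO replicate 2 (0.0775), and the E2F8 call without shNC DMSO replicate 3 (0.084) or shNRF2 DMSO replicate 1 (0.14) or 2 (0.0519) and with no filter on low counts (0.0565). Better measured were POLE at 77.9 ± 5.59 CPM in shNRF2 cells and 53.4 ± 1.72 CPM in shNC cells (0.54 ± 0.0687, edgeR adjusted p = 5.3e-07), MCM2 at 59.1 ± 5.13 and 40.9 ± 0.982 CPM (0.53 ± 0.0795), and CDC45 at 49.5 ± 2.06 and 34.7 ± 1.17 CPM (0.51 ± 0.0708, adjusted p = 2.2e-06). Among the other roles, RFC5 was the highest of the clamp loader genes (0.48 ± 0.141, a call that ended without shNC DMSO replicate 1, adjusted p = 0.076, or shNRF2 DMSO replicate 3, 0.065). TK1 led the nucleotide supply genes (0.28 ± 0.101), where the call ended without shNC DMSO replicate 1 (0.14) or 2 (0.093) or shNRF2 DMSO replicate 2 (0.085) or 3 (0.082). CDT1 (0.41 ± 0.157) and MCM8 (0.20 ± 0.0737) were called too. The CDT1 call ended without any 1 of the shNC DMSO libraries or shNRF2 DMSO replicate 1 or 3, with adjusted p up to 0.15, and also in DESeq2 (0.065), with no filter on low counts (0.095) and with a replicate block (0.0541). The MCM8 call ended without any 1 of the shNC DMSO libraries or shNRF2 DMSO replicate 2 or 3, with adjusted p up to 0.11, and also in DESeq2 (0.0517) and with no filter (0.10). The remaining calls upward were for CDC6 (0.46), RFC4 (0.47), LIG1 (0.44), UHRF1 (0.40), POLA1 (0.35), MCM7 (0.33), MCM10 (0.32), POLD1 (0.29), CLSPN (0.25) and CHAF1A (0.24).

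The 2 genes lower in shNRF2 cells with DMSO were FAM111B and GINS1. FAM111B had 41.7 ± 4.83 CPM in shNRF2 cells and 55.7 ± 2.95 CPM in shNC cells (-0.42 ± 0.0787, edgeR adjusted p = 0.00012). For GINS1 the levels were 34.4 ± 1.86 and 40.3 ± 0.323 CPM (-0.23 ± 0.0798, adjusted p = 0.027), a call that ended without shNC DMSO replicate 2 or 3 or shNRF2 DMSO replicate 1 or 2, with adjusted p between 0.0549 and 0.13. The GINS1 call also ended with library totals as the scaling (0.091), with no filter (0.068) and in limma on log2(FPKM + 1) (0.13) and log2(FPKM + 0.1) (0.15). The smallest estimates of the other roles with DMSO did not pass the test: GMNN (-0.14 ± 0.0769), PRIM2 (-0.20 ± 0.162), FEN1 (-0.091 ± 0.0641) and RRM2 (-0.047 ± 0.0686). PCNA, MCM3 and MCM4 had log2 differences of -0.0029, 0.06 and -0.011, with standard errors of 0.0525 to 0.0646, and were not called either. GMNN was called lower without shNC DMSO replicate 1 (-0.21, adjusted p = 0.0455). RRM1 and POLD3 were called higher with library totals (0.20 and 0.23) and in both limma fits, MCM5 with library totals (0.19) and GINS4 in limma on log2(FPKM + 1) (0.23). RRM1 was also called higher with a replicate block (adjusted p = 0.047) and without shNRF2 DMSO replicate 1 (0.03), and POLD3 without shNRF2 DMSO replicate 2 (0.041).

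With GNA, RRM2 was lower in shNRF2 cells at 34.4 ± 0.249 CPM, against 44.3 ± 5.86 CPM in shNC cells (-0.36 ± 0.0763, edgeR adjusted p = 0.00073), and this call held when any 1 library was left out. TYMS at 38.2 ± 1.09 CPM, against 44.6 ± 0.322 CPM (-0.22 ± 0.0705, adjusted p = 0.02), and MCM4 at 42.8 ± 2.80 CPM, against 49.3 ± 2.31 CPM (-0.21 ± 0.065, adjusted p = 0.018), were lower too. Both calls ended without shNRF2 GNA replicate 2 or 3, that of TYMS also without shNC GNA replicate 2 and that of MCM4 also without shNC GNA replicate 3, at adjusted p up to 0.076 for TYMS and 0.093 for MCM4. CDC6 was higher in shNRF2 cells at 42.9 ± 2.06 CPM, against 36.5 ± 0.601 CPM (0.23 ± 0.0639, adjusted p = 0.0074; 0.0546 without shNRF2 GNA replicate 2). UHRF1 at 44.5 ± 0.531 CPM, against 37.9 ± 4.81 CPM (0.23 ± 0.0778, adjusted p = 0.03), and POLE at 42.7 ± 1.62 CPM, against 37.1 ± 3.08 CPM (0.20 ± 0.0729, adjusted p = 0.042), were called as well. UHRF1 lost its call without shNC GNA replicate 1 or any 1 of the shNRF2 GNA libraries, with adjusted p up to 0.24, and POLE without shNC GNA replicate 1 or 2 or shNRF2 GNA replicate 2 or 3, with adjusted p up to 0.19. The POLE call also ended in DESeq2 (0.063), with no filter (0.10), in both limma fits (0.088 and 0.075), with a replicate block (0.057) and in a fit on the 2 groups alone (0.054). CDC45 was called higher in both limma fits (0.16 and 0.18), and GINS1 lower without shNRF2 GNA replicate 2 (-0.27, adjusted p = 0.045). In all, the count of 3 higher genes was 1 without shNC GNA replicate 1 or shNRF2 GNA replicate 3 and 0 without shNRF2 GNA replicate 2, and that of 3 lower genes was 1 without shNRF2 GNA replicate 3. GINS4, POLA2 and RFC4 had the highest estimates of their roles, 0.39 ± 0.16, 0.37 ± 0.264 and 0.14 ± 0.125, and ORC1 and RFC3 the lowest of theirs, -0.25 ± 0.166 and -0.25 ± 0.137, none of them called.

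**Figure D4:**
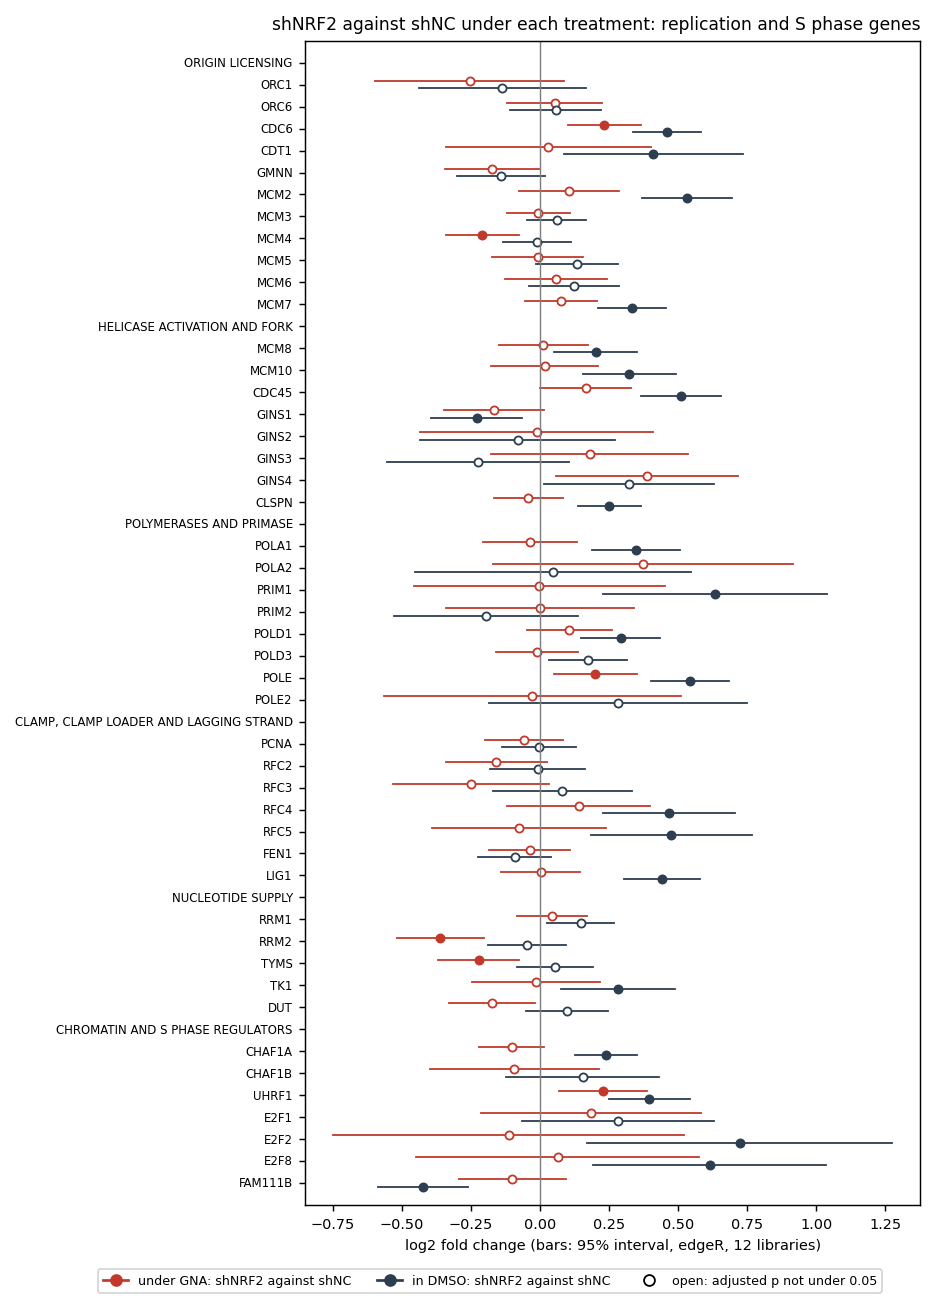
Log2 difference of shNRF2 against shNC cells (x axis) for each of the 46 genes under GNA (red) and with DMSO (dark blue), with 95% intervals from edgeR over 12 libraries; open points did not reach an adjusted p under 0.05. With DMSO 20 filled points lie right of 0 and 2 left of it, and with GNA 3 lie on each side.

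Whether GNA lowered a gene more in shNRF2 cells than in shNC cells was tested directly as the difference of the 2 log2 changes. It was called downward for 7 of the 46 genes and upward for none, against 3.24% and 3.58% of all genes tested. Above 0, 1 of the 46, FAM111B, had an unadjusted p under 0.05 in edgeR. Of the 46 estimates, 38 were below 0, as were 7951 of all 15653 genes tested. The median of the 46 was -0.21, against -0.0048 over all genes. The 7 were LIG1 (-0.44 ± 0.0957, edgeR adjusted p = 0.0049), MCM2 (-0.43 ± 0.119, 0.028), POLA1 (-0.38 ± 0.113, 0.037), CDC45 (-0.35 ± 0.107, 0.0497), POLE (-0.34 ± 0.1, 0.036), CHAF1A (-0.34 ± 0.0785, 0.0077) and CLSPN (-0.29 ± 0.0825, 0.029), each value a log2 difference with its SE and adjusted p. They include a helicase subunit and its activator, 2 polymerase catalytic subunits, the ligase, a histone chaperone and a checkpoint mediator. All 7 were also among the 20 that stood higher in shNRF2 cells with DMSO, and the 2 tests share those libraries. LIG1 and CHAF1A kept the call without any 1 library, whereas MCM2, CLSPN, POLE, POLA1 and CDC45 lost it without 7, 7, 8, 10 and 11 of the 12 libraries. Without shNC DMSO replicate 1 the calls lost were those of CDC45, CLSPN and POLA1. In limma on log2(FPKM + 1) and log2(FPKM + 0.1) the calls ended for MCM2 (0.055 and 0.068), POLE (0.073 and 0.091) and POLA1 (0.088 and 0.11). With no filter on low counts they ended for POLA1 (0.064) and CDC45 (0.14), and with a replicate block for POLE (0.054), POLA1 (0.052) and CDC45 (0.061). The count of 7 came to 2 when replicate 2 of shNRF2 DMSO or replicate 3 of shNRF2 GNA was dropped, to 3 when replicate 1 or 2 of shNRF2 GNA, replicate 3 of shNC GNA or replicate 2 of shNC DMSO was dropped, and to 4 when replicate 1 or 3 of either DMSO group was dropped.

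FAM111B ran the other way, with 0.32 ± 0.123 (edgeR adjusted p = 0.12), a difference that did not pass the test. PCNA, FEN1, MCM3 and MCM6 had differences of -0.056 ± 0.0942, 0.055 ± 0.0958, -0.065 ± 0.0758 and -0.065 ± 0.12. The lowest end of their 95% intervals was -0.31, that of MCM6, whose interval ended at 0.18. The highest end of any of these intervals was 0.25. RRM2 (-0.31 ± 0.103, adjusted p = 0.065) and MCM7 (-0.26 ± 0.0867, adjusted p = 0.075) missed the threshold. RRM2 and MCM7 passed it with library totals as the scaling (0.036 and 0.034) and in DESeq2 (0.038 and 0.046), and RRM2 also without shNC GNA replicate 2 (0.0088). TYMS passed it with library totals (0.046) or without shNC DMSO replicate 3 (0.041), and CDC6 in both limma fits (0.028 and 0.040).

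**Figure D5:**
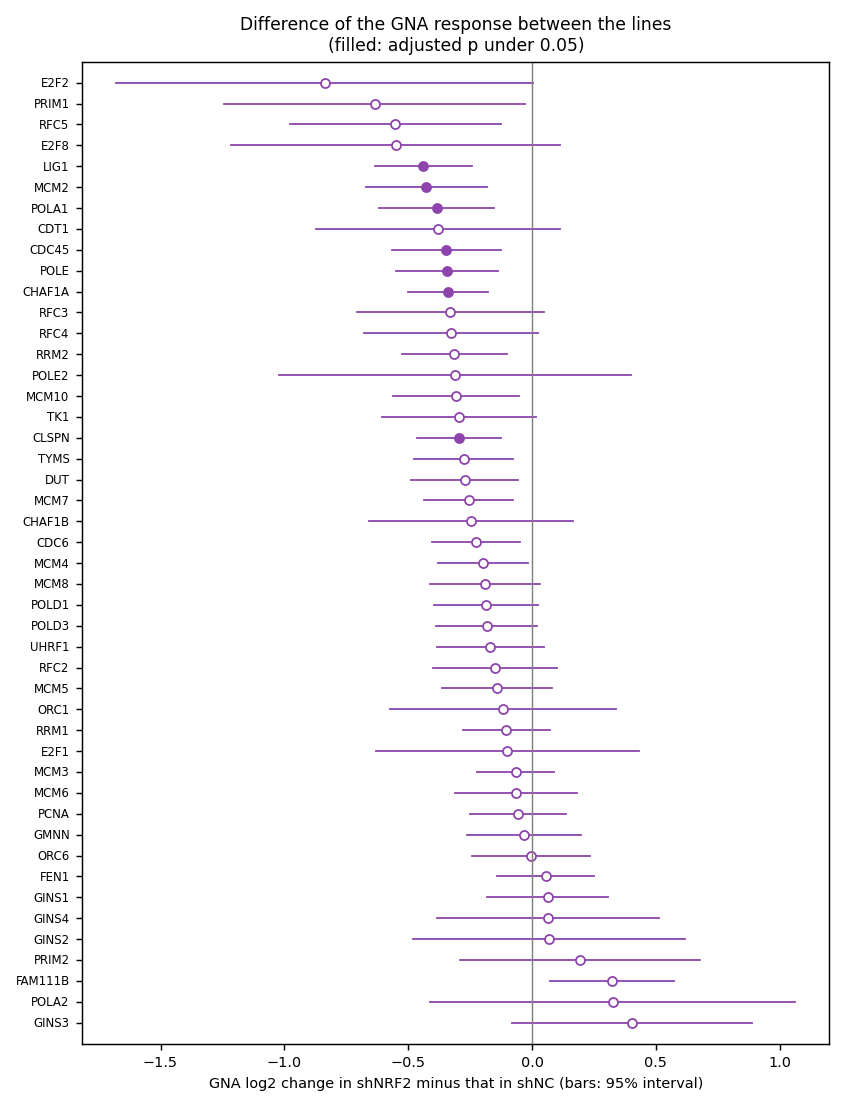
Difference between the GNA log2 change in shNRF2 cells and that in shNC cells (x axis) for the 46 genes, sorted, with 95% intervals from edgeR; filled points are the 7 genes at an adjusted p under 0.05. Of the 46 points, 38 lie left of 0, and the filled ones lie between -0.44 and -0.29.

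Per length, the genes spanned a wide range of levels. In FPKM, the order in shNC cells with DMSO began with PCNA, at 44.9 ± 3.59 with GNA and 80.3 ± 4.99 with DMSO in shNRF2 cells, and 46.4 ± 3.46 with GNA and 77.4 ± 2.42 with DMSO in shNC cells. MCM3 came next, at 31.2 ± 1.72 and 57.6 ± 1.81 in shNRF2 cells with GNA and DMSO, and 31.0 ± 1.65 and 53.2 ± 2.10 in shNC cells with GNA and DMSO. CHAF1A and FEN1 followed, at 29.3 ± 1.66 and 29.1 ± 0.846 FPKM in shNC cells with DMSO, a difference within their spread. POLA2 was the lowest. Geminin exceeded its target CDT1 in FPKM by 7.43 ± 0.294 times with GNA and 5.76 ± 0.783 times with DMSO in shNRF2 cells, and by 8.76 ± 1.54 times with GNA and 8.40 ± 1.22 times with DMSO in shNC cells, so that the ratio was lowest in shNRF2 cells with DMSO. Processed copies named after 8 of the genes are listed in the table, 20 in all, and none had more than 4 counts in a library.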

How the data were processed

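Bulk RNA was sequenced from 12 libraries in 4 groups of 3. The deposited counts are raw reads per gene, and the deposited FPKM values equal those counts divided by the library total and 1 fixed length a gene, to a relative tolerance of 0.001, for 100% of the 12835 genes checked. GRCh38 and DESeq2 are named in the submitters' processing notes; which aligner and counter were used is not given in the sources used here. Single-cell data were not analysed here.

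Counts were tested with edgeR 4.0.16 (quasi-likelihood test, TMM scaling, filterByExpr with a minimum count of 10 and a minimum total of 15), in 1 fit over all 4 groups with 8 residual degrees of freedom, and p-values were Benjamini-Hochberg adjusted over the 15653 genes tested of 61510. The 5 comparisons were the GNA response within shNRF2 cells and within shNC cells, the lines against each other with GNA and with DMSO, and the response in shNRF2 cells minus that in shNC cells. SE is the absolute log2 change over the square root of F. The procedure was tested on simulated data. Alternatives were other scalings, no filter, DESeq2 1.42.0, limma 3.58.1 on log2(FPKM + 1) and log2(FPKM + 0.1), a replicate block, a fit on the 2 groups of a comparison alone, and omission of each library in turn.

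The members and lists were chosen with earlier results of these data known. The text names every member by role; members with the steepest and the smallest change of a role, all members not called with GNA and all called between the lines are given with values, as are up to 4 genes of each other list with the largest called changes and a fixed set of G1/S genes.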

Additional observations from a re-analysis of the deposited data

Results flagged for a closer look

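For 7 of the 46 replication genes the log2 change with GNA differed between shNRF2 and shNC cells by the direct test of that difference (edgeR adjusted p under 0.05). Of all genes tested, 3.24% were called downward and 3.58% upward in the same test. The difference, shNRF2 minus shNC, was -0.44 for LIG1, -0.43 for MCM2, -0.38 for POLA1, -0.35 for CDC45, -0.34 for POLE, -0.34 for CHAF1A and -0.29 for CLSPN. Each of the 7 fell with GNA in both lines, and by more in shNRF2 cells. All 7 also stood higher in shNRF2 cells with DMSO, and the 2 tests share those libraries. With GNA, POLE alone of the 7 was called between the lines, higher in shNRF2 cells, and that call did not hold in all settings. The shNC call for LIG1 ended with library totals as the scaling and in both limma fits. For the difference, LIG1 and CHAF1A kept the call without any 1 library. MCM2, CLSPN, POLE, POLA1 and CDC45 lost it without 7, 7, 8, 10 and 11 of the 12 libraries.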

How the results depend on the processing

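No member changed direction under any alternative in a call. With library totals as the scaling, the median of all genes moved up by 0.10 with GNA in shNC cells, and the members' medians became -0.59 there, -0.88 with GNA in shNRF2 cells, 0.24 between the lines with DMSO, 0.0084 between them with GNA and -0.25 for the difference of responses. In limma on log2(FPKM + 1) the GNA medians were -0.65 in shNRF2 cells and -0.44 in shNC cells, and on log2(FPKM + 0.1) they were -0.84 and -0.59, with 0.24, 0.0095 and -0.24 for the other 3. The 2 members lower in shNRF2 cells with DMSO became 1 with library totals, 1 with no filter and 1 in either limma fit. The labels do not say whether libraries with the same number are paired. After group means were removed, 0 of 18 same-number pairs correlated above 0.1. Pairs with different numbers did not exceed that value either, so it cannot decide whether libraries are paired. Of the 12 libraries, 1 correlated best with a library of its own number. With a replicate block the 7 members differing between the lines became 4, and no other members' count moved by over 1.5 times. Leaving out each library gave medians of -0.96 to -0.92 with GNA in shNRF2 cells, -0.72 to -0.67 in shNC cells, 0.17 to 0.21 with DMSO and -0.25 to -0.19 for the difference; counts ran from 1 to 3 lower with DMSO, 1 to 3 lower and 0 to 3 higher with GNA, and 2 to 6 for the difference. Over all genes, 1542 fell and 3543 rose with GNA in shNC cells under library totals (2526 and 2284 under TMM), and 1430 or 1417 fell in limma. For the difference over all genes (507 lower and 561 higher), limma gave 301 or 274 higher and 329 lower on log2(FPKM + 0.1), and leaving out a library 315 to 673 lower. The cause was not tested. The difference of responses needs all groups, so no fit on fewer groups exists for it. Errors were wider for members at low counts, with an SE of 0.256 for POLA2 and 0.0584 for CLSPN with GNA in shNC cells. The part of depth in these changes of call was not tested.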
